A study of Mus musculus with 18 samples.

Results

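The activating transcription factor ATF4 and 9 genes known as its targets were followed in mouse embryonic stem cells (mESCs) on substrates of different stiffness. The 10 genes, Atf4, Ddit3, Trib3, Chac1, Asns, Psat1, Phgdh, Sesn2, Ddit4 and Slc7a11, were taken by name as genes of the integrated stress response, with earlier results of these data known. Each was found as 1 row among the 46078 genes of the counts table, and each passed the filter on low counts, which left 13438 protein-coding genes to test.

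All groups held E14 cells, an established wild-type mESC line of a 129 strain, cultured for 24 h in medium with serum and LIF, a cytokine that sustains self-renewal. Cells grew on fibronectin-coated StemBond gels, which are polyacrylamide gels that contain 6-acrylamidohexanoic acid (AHA), whose concentration sets how firmly extracellular matrix is tethered to the gel. Soft gels had a modulus of about 750 Pa and stiff gels of about 160 kPa, and AHA was at 16 mM in the low, 48 mM in the mid and 80 mM in the high gels, so that the design crossed stiffness with tethering in 6 groups of 3 RNA-seq libraries. The line is a single one, and the labels do not say whether the 3 libraries of a group came from separate cultures, so p-values measure the spread between these libraries, which may be technical.

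When amino acids run short, when unfolded protein gathers in the endoplasmic reticulum or when haem is lacking, kinases phosphorylate the translation initiation factor eIF2. General translation then falls while the Atf4 mRNA is translated more, through open reading frames ahead of its coding sequence, so that ATF4 activity is set largely by translation and the level of its mRNA is only part of it. ATF4 pairs with C/EBP proteins on composite DNA elements and switches on genes that make, import and save amino acids, and, when the stress lasts, genes that end the response or the cell.

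The composite element was searched as TGATGNAA on both strands in the RefSeq promoters of build GRCm38.p6. In the 250 bases before the annotated start it was found in 3 of the 10 genes (Chac1, Asns and Slc7a11), compared with 3.907% of 27025 genes. With 50 bases after the start included, 4 of the 10 genes held it, Trib3 being the fourth with a reverse match from position 15 after the start, compared with 4.511% of genes. The 3 matching stretches are shown because they are the places in these promoters where the ATF4 element reads in full. Letters in capitals are the element in either direction, and each stretch is written in the direction of its gene.
Asns, chr6:7693214-7693243, minus strand: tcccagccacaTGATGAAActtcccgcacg
Chac1, chr2:119351038-119351067, plus strand: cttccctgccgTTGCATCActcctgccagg
Slc7a11, chr3:50443642-50443690, minus strand: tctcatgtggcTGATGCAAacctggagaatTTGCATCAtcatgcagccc
The Asns element begins 23 bases before the RefSeq start, and its stretch lies inside the first exon as GENCODE M21 draws the gene. In Chac1 the reverse element begins 193 bases before the start, and in Slc7a11 a forward and a reverse copy begin 66 and 47 bases before it. A match describes these letters only, and the other 6 genes may be reached by other elements, which were not searched.

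Depth was between 5850621 and 9290261 gene counts per library. Replicate pairs differed by 1.82 to 3.07 times the counting variance (chi-square per degree of freedom, 18 pairs) within groups, so no library was a copy of another of its group. One soft, high AHA library (replicate 1) had 1.37% of its gene and spike-in counts in ERCC spike-in RNAs, compared with 0.607 to 0.725% in the other libraries, and it was left out as the study did with libraries of high ERCC share, which left 8 soft and 9 stiff libraries. Reads not aligned took 36.3% ± 0.246 (SD, n = 8) of the soft and 37.1% ± 0.901 (SD, n = 9) of the stiff libraries (exact two-sided permutation test, p = 0.0313, adjusted p = 0.0938 over 3 library measures), and their part in the results was not tested beyond a fit with this share as a covariate. The embryonic stem cell identity showed in the markers, with Pou5f1 at 53411 counts over the 18 libraries. Of 8 such markers, 5 were called higher and 1 lower on soft gels. Their summed level was 2056 to 2245 CPM on soft and 1919 to 2085 CPM on stiff gels. Of 7 fibroblast markers 5 were tested, and all 5 were below 0 on soft gels, with a median log2 fold change of -0.22. Col1a1 was called lower, and Pdgfrb was called lower at high AHA alone (-1.35, edgeR adjusted p = 0.0230). In all, Col1a1 had 12981 counts, Col1a2 2197, Col3a1 958, Pdgfrb 570, Thy1 357, Dcn 18 and Lum 6. The list summed to 118 to 198 CPM on soft and 170.1 to 242 CPM on stiff gels. Of 7 trophectoderm markers Krt8 and Krt18 were called lower and Tfap2c higher, and their sum was 955 to 1178 CPM on soft and 1228 to 1358 CPM on stiff gels. Of 7 primitive endoderm markers 6 had estimates above 0 (higher on soft gels) and 0 were called by edgeR or DESeq2 (0 with an unadjusted p under 0.05 in either), with a median log2 fold change of 0.18. Their sum was 36.8 to 51.2 CPM on soft and 37.3 to 49.3 CPM on stiff gels, of which Dab2, at 20.7 CPM, was the 1 below 0. Two-cell-like markers summed to 18.5 to 27.2 and 20.9 to 31.5 CPM. The part of any of these in the results below was not tested.

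Across the whole set, stem cells on soft gels had slightly more mRNA of the amino acid synthesis enzymes Asns and Psat1, by 9.86 and 8.85%. Neither call held in every fit. Asns did not pass in edgeR with the share of reads not aligned as a covariate (adjusted p = 0.0761). Without soft, high AHA replicate 3 its log2 fold change was 0.09. Psat1 did not pass with DESeq2 (adjusted p = 0.0625). Estimates for 7 of the other 8 members were also above 0 and did not pass, from 1.91% for Slc7a11 to 44.1% for Chac1. Averaged over the 3 AHA concentrations, 9 of the 10 genes were higher on soft than on stiff gels, compared with 50.3% of all tested genes, and the median log2 fold change was 0.13 compared with 0.00 over all genes. The 10 genes were chosen with earlier results of these data known, so such comparisons with all genes describe the set and are not an independent test. With libraries scaled by ERCC counts these medians were 0.19 and 0.07, and 9 of the 10 were again higher. Asns and Psat1 passed the test (edgeR quasi-likelihood, Benjamini-Hochberg adjusted p under 0.05), which is 2 of 10, and 8.59% of all tested genes were called in this comparison, 3.77% as higher on soft gels. A further 3 genes, Ddit3, Sesn2 and Ddit4, had unadjusted p under 0.05 but did not pass. No member separated all soft from all stiff libraries, which 1.27% of tested genes did. In bulk RNA, more cells in a state and more RNA per cell cannot be told apart. Levels below are CPM, a gene's counts scaled by TMM to a common library total over the tested genes.

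**Figure D1:**
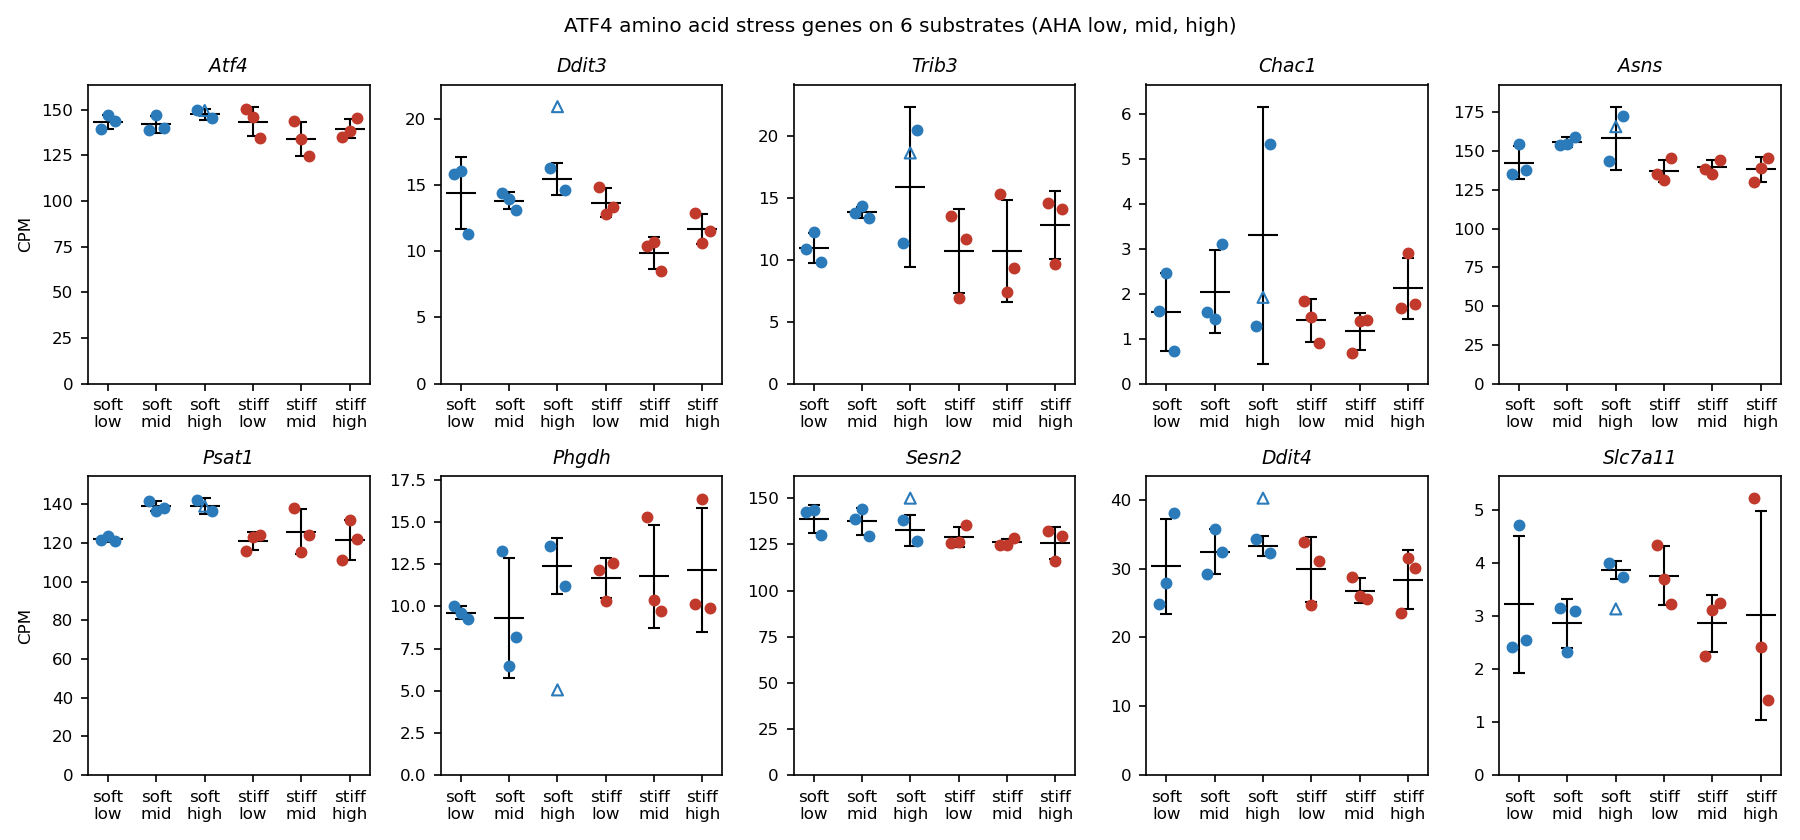
Level of each of the 10 genes in CPM (linear axis from 0) in the 6 groups, with 1 point per library (soft blue, stiff red), the group mean as a dash and the SD as a bar. Open triangles are the soft, high AHA library left out of the fit, in CPM scaled with all 18 libraries. Libraries of Atf4, Psat1 and Sesn2 lie close to their group means, while Chac1, Slc7a11 and Trib3 are spread widely in some groups.

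ATF4 itself is the transcription factor of the group. Atf4 (ENSMUSG00000042406, chromosome 15, 80255184 to 80257541, plus strand, GRCm38) is a single exon block in the annotation used here. Its level was 139, 147 and 144 CPM on soft gels with low AHA, 139, 147 and 139.9 CPM with mid AHA, and 149.8 and 146 CPM with high AHA. On stiff gels it was 150.3, 146 and 134 CPM with low, 144, 134 and 125 CPM with mid, and 135, 138 and 145 CPM with high AHA. The stiff range enclosed the soft range, and 5 of 9 stiff libraries lay below all soft ones. Its mean log2 fold change was 0.05 (SE 0.04, 95% interval -0.02 to 0.13, adjusted p = 0.444), which did not pass. It was 0.11 (adjusted p = 0.142) with the share of reads not aligned as a covariate and 0.12 (adjusted p = 0.185) with ERCC scaling. Per kilobase of exon, with lengths taken over all annotated transcripts, it was the most abundant of the 10, at 60.0 CPM per kb.

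Ddit3 (ENSMUSG00000025408, chromosome 10, 127290774 to 127296288, plus strand) encodes CHOP, the factor that turns a lasting stress response towards cell death. On soft gels it was at 15.8, 16.0 and 11.3 CPM with low, 14.4, 14.0 and 13.1 CPM with mid, and 16.3 and 14.6 CPM with high AHA. On stiff gels it was at 14.9, 12.8 and 13.3 CPM with low, 10.4, 10.7 and 8.50 CPM with mid, and 12.9, 10.6 and 11.5 CPM with high AHA. Soft and stiff libraries overlapped at low AHA and did not at mid and high AHA, a separation that 18.0% and 24.7% of all tested genes showed in these small groups. The mean log2 fold change was 0.31 (SE 0.11, 95% interval 0.09 to 0.54, adjusted p = 0.0619), which did not pass. It passed in 4 of 9 alternatives, among them all 18 libraries kept (0.37, adjusted p = 0.0135). It did not pass with the share of reads not aligned as a covariate (0.35, adjusted p = 0.142) or with DESeq2 (0.32, adjusted p = 0.0985). Exons of Gm4189 and Mars lie opposite 4.73% of its exon bases and those of other annotated genes overlap 6.13% on its own strand, and the strand setting of the counting is not given in the sources used here.

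Trib3 (ENSMUSG00000032715, chromosome 2, 152337422 to 152344032, minus strand) encodes a pseudokinase that is induced by ATF4 and CHOP and restrains them. Its soft libraries ranged from 9.80 to 20.5 CPM with a median of 12.8 CPM, and its stiff libraries from 6.90 to 15.3 CPM with a median of 11.7 CPM. A single soft library, high AHA replicate 3, was at 20.5 CPM, while the next highest library in the fit was at 15.3 CPM. The mean log2 fold change was 0.22 (SE 0.13, 95% interval -0.03 to 0.48, adjusted p = 0.339), and without that library it was 0.07. It was 0.35 without soft, high AHA replicate 2 and 0.33 without stiff, mid AHA replicate 1 (adjusted p = 0.0891 and 0.0952).

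Among the enzymes that make amino acids, Asns (ENSMUSG00000029752, chromosome 6, 7675169 to 7693254, minus strand) encodes asparagine synthetase, which makes asparagine from aspartate and glutamine. On soft gels Asns was at 135, 155 and 138 CPM with low, 154, 155 and 159 CPM with mid, and 144 and 173 CPM with high AHA. On stiff gels it was at 135, 131 and 145 CPM with low, 139, 135 and 144 CPM with mid, and 129.8, 139 and 145 CPM with high AHA. All mid AHA libraries on soft gels were above every stiff library, while low AHA libraries overlapped. In all, 5 of 8 soft libraries exceeded the highest stiff library. Asns rose on soft gels with a mean log2 fold change of 0.14 (SE 0.04, 95% interval 0.06 to 0.21, adjusted p = 0.0095). Without the soft, high AHA library at 173 CPM the value was 0.09 (adjusted p = 0.191), and it was 0.13 (adjusted p = 0.0160) when that library was left out but soft, high AHA replicate 1 was kept. With the share of reads not aligned as a covariate the value was 0.13 (SE 0.05, adjusted p = 0.0761), close to 0.14 but not past the threshold.

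Psat1 (ENSMUSG00000024640, chromosome 19, 15904678 to 15947337, minus strand) encodes phosphoserine aminotransferase, the second enzyme of serine synthesis. On soft gels it was at 122, 124 and 121 CPM with low, 142, 137 and 138 CPM with mid, and 142 and 136 CPM with high AHA. On stiff gels it was at 116, 123 and 124 CPM with low, 138, 115 and 124 CPM with mid, and 111, 132 and 122 CPM with high AHA. Soft libraries were at 121 to 124 CPM with low and at 136 to 142 CPM with mid or high AHA, a difference that did not pass (adjusted p = 0.524 for mid and 0.361 for high against low), and 12.0% of all tested genes separated mid from low AHA on soft gels. The stiff libraries of the 3 concentrations overlapped, and the interaction did not pass for Psat1 (adjusted p = 0.855). Psat1 rose on soft gels by 0.12 on the log2 scale (SE 0.04, 95% interval 0.04 to 0.20, adjusted p = 0.0317). Leaving out soft, high AHA replicate 2 (adjusted p = 0.128), stiff, low AHA replicate 1 (0.0757), stiff, mid AHA replicate 2 (0.103) or 3 (0.0513), or stiff, high AHA replicate 1 (0.115) ended the call, as did DESeq2 (0.0625). A pseudogene, Gm12611, shares 1.21% of its 50-base stretches.

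Phgdh (ENSMUSG00000053398, chromosome 3, 98313170 to 98339990, minus strand) encodes phosphoglycerate dehydrogenase, the enzyme before PSAT1 in the same pathway. It was the only member lower on soft gels by its estimate, at 10.2 ± 2.43 CPM (SD, n = 8) compared with 11.9 ± 2.47 CPM (SD, n = 9), with ranges of 6.44 to 13.6 and 9.72 to 16.4 CPM that overlapped widely. The log2 fold change was -0.18 (SE 0.13, 95% interval -0.43 to 0.07, adjusted p = 0.469). It ranged from -0.10 without stiff, high AHA replicate 2 to -0.29 without soft, mid AHA replicate 1, and stood at -0.04 with the share of reads not aligned as a covariate and at -0.39 with soft, high AHA replicate 1 kept and replicate 2 dropped. Its level is uncertain: 63.1% of the 50-base stretches of its transcript also occur in 23 other annotated genes, 20 of them pseudogenes, and the 10 of these in the table held 2351 counts over the 18 libraries compared with 1044 for Phgdh.

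The stress outputs Sesn2 and Ddit4 both restrain the growth kinase complex mTORC1, and both are also p53 targets. Sesn2 (ENSMUSG00000028893, chromosome 4, 132492032 to 132510501, minus strand) encodes sestrin 2, a leucine sensor. Its soft libraries ranged from 127 to 144 CPM (median 139) and its stiff libraries from 116 to 135 CPM (median 126), and 5 of 8 soft libraries exceeded all stiff ones. All 8 soft libraries were above the stiff median. The log2 fold change was 0.10 (SE 0.04, 95% interval 0.02 to 0.18, adjusted p = 0.0927). It passed in 4 of 9 alternatives, among them all 18 libraries kept (0.12, adjusted p = 0.0199). It did not pass with the share of reads not aligned as a covariate (0.09, adjusted p = 0.293) or with DESeq2 (0.10, adjusted p = 0.136).

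Ddit4 (ENSMUSG00000020108, chromosome 10, 59949669 to 59951834, minus strand) encodes REDD1, which is also induced by low oxygen. Soft libraries ranged from 24.9 to 38.1 CPM (median 32.3) and stiff libraries from 23.5 to 33.9 CPM (median 28.8). The groups overlapped at low AHA and did not at mid and high AHA, where adjusted p was 0.330 and 0.579 and where 18.0% and 24.7% of all tested genes did not overlap either. The log2 fold change over all 3 concentrations was 0.18 (SE 0.08, 95% interval 0.02 to 0.33, adjusted p = 0.166), and without soft, low AHA replicate 3 it was 0.11 (adjusted p = 0.481).

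Chac1 and Slc7a11 act on glutathione from opposite sides. Chac1 (ENSMUSG00000027313, chromosome 2, 119351229 to 119354381, plus strand) encodes an enzyme that breaks glutathione down, and it was held by only 3 to 27 counts per library. Its level was 1.60, 2.45 and 0.726 CPM on soft gels with low, 1.58, 1.43 and 3.10 CPM with mid, and 1.28 and 5.32 CPM with high AHA. On stiff gels it was 1.84, 1.48 and 0.899 CPM with low, 0.675, 1.38 and 1.42 CPM with mid, and 1.69, 2.89 and 1.77 CPM with high AHA. Its estimate was the largest of the 10, at 0.53, but with the widest interval (SE 0.31, 95% interval -0.09 to 1.15, adjusted p = 0.356). The soft, high AHA library at 5.32 CPM was the one that also held the highest Trib3 and Asns levels, and without it the estimate for Chac1 was 0.09. A difference between the substrates was thus not detected for Chac1.

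Slc7a11 (ENSMUSG00000027737, chromosome 3, 49892526 to 50443614, minus strand) encodes the light chain of the transporter that brings in cystine, the precursor of glutathione, in exchange for glutamate. It held 8 to 34 counts per library. Soft libraries ranged from 2.33 to 4.71 CPM and stiff libraries from 1.41 to 5.22 CPM, so the stiff range enclosed the soft one. The log2 fold change was 0.03 (SE 0.23, 95% interval -0.43 to 0.48, adjusted p = 0.968). Its sign was not stable, at -0.10 without soft, low AHA replicate 2, 0.27 without stiff, high AHA replicate 1 and -0.28 with the share of reads not aligned as a covariate.

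Ranked per kilobase of exon over the 17 libraries, Atf4 at 60.0 ± 2.84 CPM per kb (SD, n = 17) was followed by Asns at 52.8 ± 4.15, Sesn2 at 37.9 ± 2.26, Psat1 at 30.0 ± 2.32 and Ddit4 at 17.1 ± 2.41 CPM per kb. Below these stood Ddit3 at 7.59 ± 1.31, Trib3 at 5.78 ± 1.54, Phgdh at 4.46 ± 1.02, Chac1 at 1.13 ± 0.680 and Slc7a11 at 0.232 ± 0.0704 CPM per kb. The levels of Atf4 and Asns overlapped between libraries, as did those of Sesn2 and Psat1 and those of neighbours from Ddit3 through Trib3 and Phgdh to Chac1. Within a library Phgdh exceeded Chac1 in all 17 cases, Atf4 exceeded Asns in 16 of 17 cases, Ddit3 exceeded Trib3 in 15 and Trib3 exceeded Phgdh in 13. Exon length was taken over all annotated transcripts of a gene, which lowers values on this scale where the longest single transcript is shorter. These lengths were 13922 and 9223 bases for Slc7a11, 4254 and 2617 for Psat1, and 2735 and 2016 for Asns. They were 1713 and 969 bases for Ddit3, 2358 and 2019 for Atf4, and 3475 by either measure for Sesn2. The order therefore depends on the length used, and no ranking by longest transcript was made.

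At each AHA concentration taken alone, 0 of the 10 genes passed edgeR's test. These tests ask for a difference within a concentration. Whether the response to stiffness depends on tethering is asked by the test that the 3 differences were equal, given below. At low AHA 3.04% of all genes were called, 7 of 10 members were higher on soft gels, their median log2 fold change was 0.01 and none had an unadjusted p under 0.05. At mid AHA 2.86% of genes were called, 8 of 10 members were higher, the median was 0.15 and 4 had an unadjusted p under 0.05. At high AHA, with 2 soft libraries, 0.841% of genes were called, all 10 members were higher, the median was 0.23 and 2 had an unadjusted p under 0.05. DESeq2 also called 0 members in each, with 0, 3 and 2 unadjusted p-values under 0.05. At high AHA DESeq2 gave no adjusted p for Ddit3, Chac1, Slc7a11, Trib3 and Phgdh, so these could not be called there. Of all tested genes, 51.0%, 49.9% and 49.5% were higher on soft gels at low, mid and high AHA. Soft and stiff libraries did not overlap for 1 of 10 members at low AHA (Phgdh), 5 at mid (Ddit3, Chac1, Asns, Sesn2 and Ddit4) and 4 at high AHA (Atf4, Ddit3, Psat1 and Ddit4), compared with 18.2%, 18.0% and 24.7% of all tested genes.

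The estimates of Asns, Psat1 and Ddit3 at the 3 concentrations are given side by side, and none passed. For Asns the soft minus stiff log2 fold change was 0.05 (95% interval -0.07 to 0.18) at low, 0.16 (0.04 to 0.29) at mid and 0.19 (0.05 to 0.33) at high AHA, with adjusted p of 0.815, 0.176 and 0.202. The high AHA value was 0.06 (adjusted p = 0.901) without soft, high AHA replicate 3, 0.32 (adjusted p = 0.0490) without replicate 2, 0.22 (adjusted p = 0.0338) with all 18 libraries and 0.29 (adjusted p = 0.00303) with replicate 2 dropped in place of replicate 1. For Psat1 the values were 0.01 (-0.12 to 0.15), 0.15 (0.02 to 0.28) and 0.20 (0.06 to 0.35), with adjusted p of 0.969, 0.265 and 0.186. Ddit3 had 0.06 (-0.30 to 0.43), 0.48 (0.10 to 0.86) and 0.40 (-0.01 to 0.80), with adjusted p of 0.948, 0.194 and 0.494. The test of whether the 3 differences were equal, on all 10 genes, called 0 members (edgeR and DESeq2, 0 with unadjusted p under 0.05 in either), while edgeR called 0.0298% of all genes. Psat1 had the lowest unadjusted p among members (adjusted p = 0.855), so no dependence of the stiffness response on AHA was shown for any member.

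**Figure D2:**
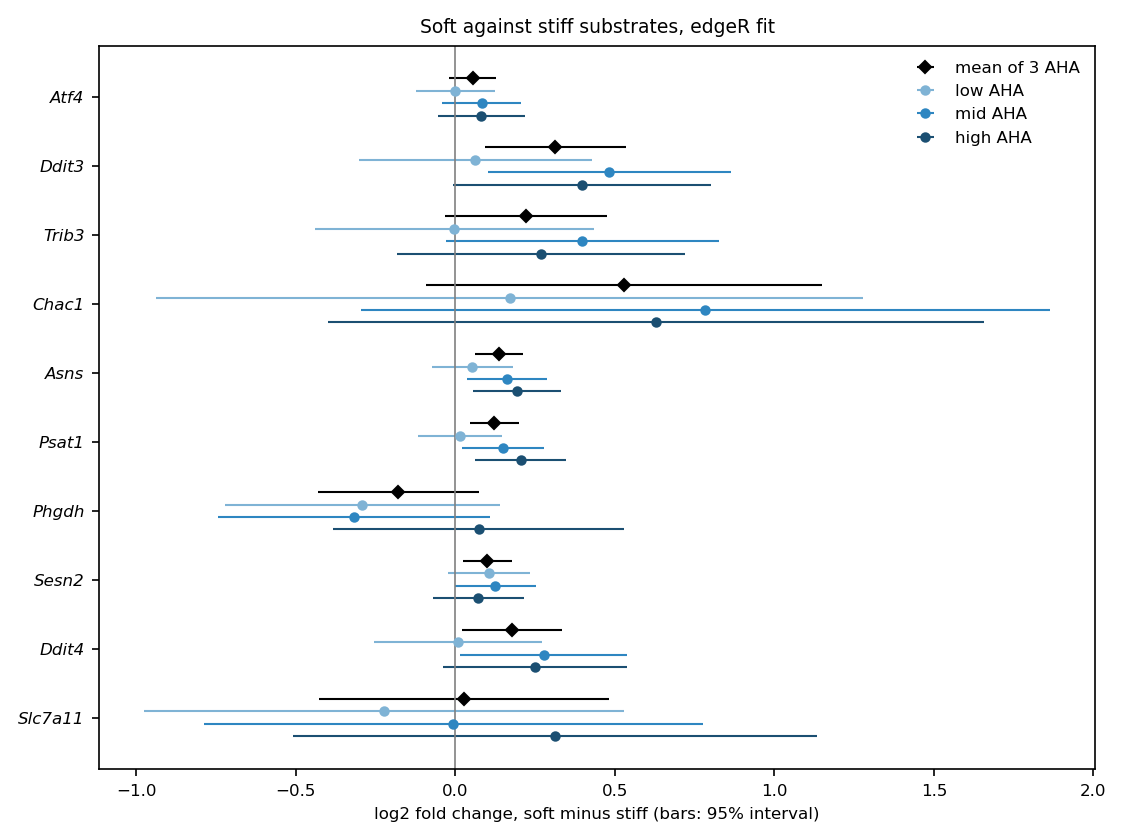
Soft minus stiff log2 fold change of each gene (horizontal axis) from the edgeR fit, as the mean over the 3 AHA concentrations (diamonds) and at low, mid and high AHA (circles), with 95% intervals as bars. At low AHA all 10 intervals cross 0, and the mean intervals of Ddit3, Asns, Psat1, Sesn2 and Ddit4 lie above 0.

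AHA was also compared within each stiffness, which asks whether tethering alone changed the stress genes. On soft gels 0 members passed between high and low AHA, where 0.253% of all genes were called, 9 of 10 were higher with high AHA and 3 had an unadjusted p under 0.05 (1 by DESeq2). Psat1 was the one with the lowest unadjusted p, at 0.19 (SE 0.07, 95% interval 0.05 to 0.33, adjusted p = 0.361), followed by Trib3 at 0.52 (95% interval 0.05 to 0.98, adjusted p = 0.506) and Asns at 0.14 (0.01 to 0.28, adjusted p = 0.556). Without soft, high AHA replicate 3 Trib3 stood at 0.05 and Asns at 0.01. Between mid and low AHA on soft gels Psat1 differed by 0.19 (95% interval 0.06 to 0.31, adjusted p = 0.524), without overlap of its 3 libraries a group, as in 12.0% of all tested genes, and 0 genes of all were called (2 members with an unadjusted p under 0.05, 1 by DESeq2). High against mid AHA gave 0 members (0 with an unadjusted p under 0.05), with 0.0670% of all genes called. These comparisons share libraries with each other and with the stiffness comparisons above.

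On stiff gels the sign of the estimates changed with the pair of concentrations compared. High against low AHA called 0 members (0.00744% of genes), 4 of 10 were higher with high AHA, the median log2 fold change was -0.02 and the interval for Psat1 was -0.13 to 0.13 around 0.00. High against mid AHA called 0 members (0.00744% of genes), with 8 of 10 higher with high AHA and a median of 0.06. Mid against low AHA called 0 members and 0 genes, with 2 of 10 higher with mid AHA and a median of -0.08. Only Ddit3 had an unadjusted p under 0.05 there by edgeR, at -0.47 for mid minus low (95% interval -0.86 to -0.09, adjusted p = 0.905), from 12.8 to 14.9 CPM with low to 8.50 to 10.7 CPM with mid AHA. DESeq2 gave 1 such gene in mid against low AHA and 0 in the others on stiff gels.

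Members did not move as a block from library to library. Over the 17 libraries, the 45 pairs of members had Pearson correlations of log2 CPM from -0.46 to 0.64 with a median of 0.18, and 33 were above 0. After group means were taken out the median was 0.04 and 24 were above 0. All these values share library depth and scaling, and low counts weaken those of Chac1 and Slc7a11. The highest pairs were Asns with Psat1 (0.64, and 0.18 within groups), Ddit3 with Sesn2 (0.64, and 0.55 within groups) and Atf4 with Ddit3 (0.62, and 0.27 within groups). Thus the likeness of Asns and Psat1 was mostly between groups, and that of Ddit3 and Sesn2 was also present within them. Within groups the highest values were those of Psat1 with Phgdh (0.64), Chac1 with Asns (0.56) and Ddit3 with Sesn2 (0.55). With Atf4 itself the correlation was 0.62 for Ddit3 and 0.52 for Ddit4, which were above 99.5% and 98.0% of all tested genes, compared with 0.16 for Asns and -0.02 for Phgdh. The 5 genes most like Atf4 by this measure were Wdr54 (0.84), Rpl21 (0.79), Sppl2b (0.77), Prdm1 (0.77) and St8sia1 (0.76), none of them a member.

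**Figure D3:**
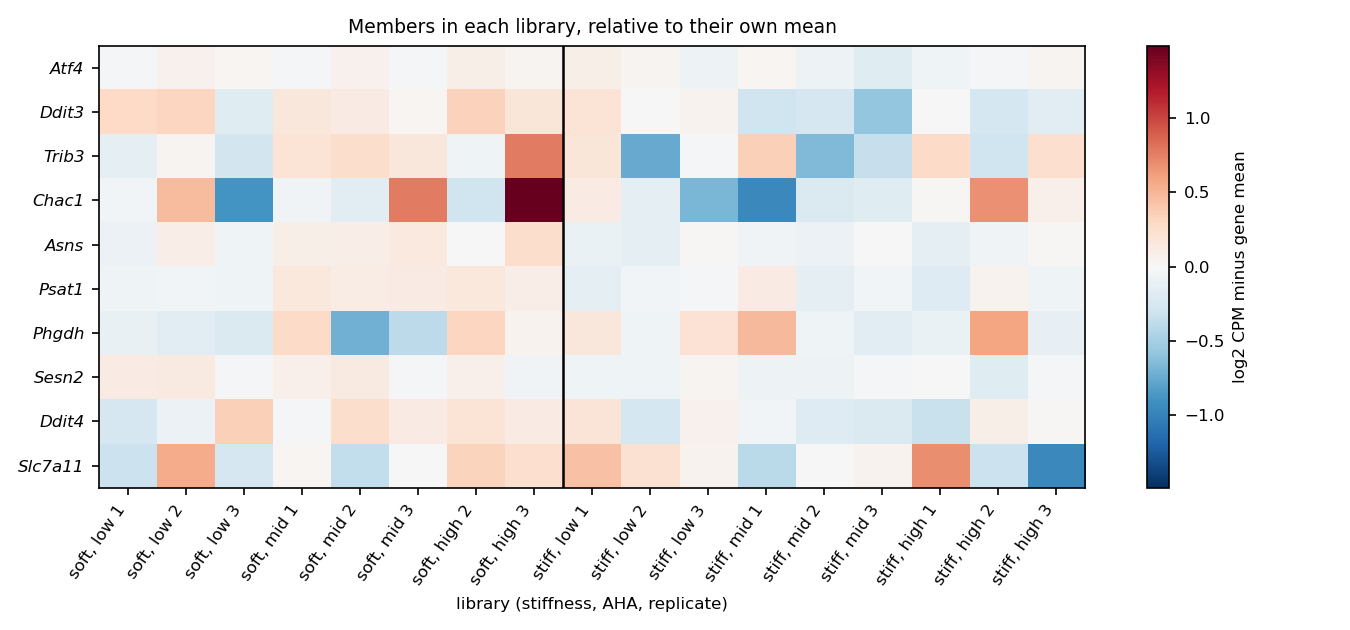
Log2 CPM of each gene in each of the 17 libraries minus the gene's own mean (red above, blue below), with soft libraries left and stiff libraries right of the line. Soft, high AHA replicate 3 is the reddest column for Chac1, Trib3 and Asns, while Atf4 stays pale in every library.

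The other genes of the response were read from 9 lists of known components, where 3.77% of all tested genes were called higher and 4.82% lower on soft gels in the mean comparison. Of 15 genes that control eIF2 (kinases, eIF2 and eIF2B subunits and phosphatase subunits) 2 rose on soft gels: Eif2s2, the beta subunit of eIF2, by 0.10 (adjusted p = 0.0211) and Ppp1r15b, the constitutive subunit of the eIF2 phosphatase, by 0.12 (adjusted p = 0.0219). Exons of other genes lie opposite 11.4% of the exon bases of Ppp1r15b. None was called lower, 11 of the 15 were above 0 and 4 below, and the list's median was 0.04. Among those below 0, Ppp1r15a, a further phosphatase subunit, stood at -0.11 (SE 0.05, edgeR unadjusted p = 0.0207, adjusted p = 0.143), which did not pass. Of 7 bZIP partners and cofactors of ATF4 2 rose: Atf3, a stress-induced repressor, by 0.36 (SE 0.11, adjusted p = 0.0142) and Cebpg, which pairs with ATF4 on the composite element, by 0.29 (SE 0.08, adjusted p = 0.00632). The list's median was 0.03, with 4 of 7 above 0. With the share of reads not aligned as a covariate Eif2s2 stood at 0.08 (adjusted p = 0.237), Ppp1r15b at 0.12 (adjusted p = 0.115) and Atf3 at 0.29 (adjusted p = 0.219), which did not pass. Cebpg passed in that fit, at 0.30 (adjusted p = 0.0407), and its call was lost when soft, high AHA replicate 1 was kept and replicate 2 was dropped (adjusted p = 0.0643). With 1 library left out in turn the calls of Eif2s2, Ppp1r15b, Atf3 and Cebpg were lost in 3, 3, 2 and 1 of 17 fits.

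Amino acid transporters did not share a direction, with 4 of 8 above 0 and a median of 0.02. Slc7a5, the light chain of the large neutral amino acid transporter, fell by 0.09 (adjusted p = 0.0356), a call that 11 of the 17 fits with 1 library left out lost. At low AHA alone Slc7a1, an arginine and lysine transporter, fell by 0.25 (adjusted p = 0.0461) and Slc1a5, a glutamine transporter, rose by 0.47 (adjusted p = 0.0490), where 3.04% of all genes were called. Neither passed in the mean comparison, with Slc7a1 at -0.10 (adjusted p = 0.169) and Slc1a5 at 0.07 (adjusted p = 0.716). Of 11 further enzymes of serine, one-carbon, proline and transsulfuration metabolism 10 were above 0, with a median of 0.09. Gpt2, the mitochondrial alanine aminotransferase, rose by 0.22 (adjusted p = 0.0267) and Cth, which makes cysteine from cystathionine, fell by 0.18 (adjusted p = 0.0313), and DESeq2 called neither. With 1 library left out in turn these calls were lost in 6 and 8 of 17 fits.

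Of 20 cytosolic tRNA synthetases 13 were above 0, with a median of 0.02, and 2 rose: Cars, which charges cysteine tRNA, by 0.15 (SE 0.04, adjusted p = 0.0029) and Aars, which charges alanine tRNA, by 0.10 (SE 0.02, adjusted p = 0.00303). These 2 calls held in all 9 alternatives and all 17 fits with 1 library left out, and both genes also rose at mid AHA alone, Cars by 0.25 (adjusted p = 0.00828) and Aars by 0.15 (adjusted p = 0.0214). Of 7 tested genes of other stress output 0 passed by edgeR (1 with an unadjusted p under 0.05) or by DESeq2 (0), with a median of 0.02 and Eif4ebp1, a translation repressor and the most abundant of them at 264 CPM, at 0.03 (95% interval -0.03 to 0.09).

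The ATF6 and XBP1 arms of the unfolded protein response raise chaperones of the endoplasmic reticulum. All 13 of their listed genes were below 0 on soft gels under TMM scaling, with a median of -0.06, whereas 6 of 13 were below 0 with libraries scaled by ERCC counts, which moved the median of all genes to 0.07. Under TMM 4 of the 13 fell. Manf, a secreted stress factor, fell by 0.19 (SE 0.04, adjusted p = 0.000513), Hspa5, the chaperone BiP, by 0.10 (adjusted p = 0.00353), Hsp90b1, the chaperone GRP94, by 0.08 (adjusted p = 0.00448) and Hyou1, another chaperone, by 0.08 (adjusted p = 0.0484). With ERCC scaling the same 4 genes stood at -0.13, -0.04, -0.02 and -0.02 and did not pass, nor did Slc7a5, Cth, Txnrd1 and Ccng1. With the share of reads not aligned as a covariate Hspa5 stood at -0.09 (adjusted p = 0.0757), Hsp90b1 at -0.08 (adjusted p = 0.0518) and Hyou1 at -0.07 (adjusted p = 0.291), close to their values without it but not past the threshold. Exons of other genes lie opposite 10.3% of the exon bases of Hsp90b1 and 8.85% of those of Manf. Hyou1 lost its call in 6 of 9 alternatives in all and in 13 of the 17 fits with 1 library left out.

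In 2 neighbouring pathways that share members with the set, NRF2 targets had 4 of 8 genes above 0 and 1 call, Txnrd1, the cytosolic thioredoxin reductase, which fell by 0.11 (adjusted p = 0.000344). Targets of p53 had 7 of 10 above 0, with Trp53inp1, an autophagy and p53 cofactor gene, higher by 0.19 (SE 0.03, adjusted p = 4.47e-07) and Ccng1, cyclin G1, lower by 0.09 (adjusted p = 0.0108). The medians were 0.01 and 0.06.

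**Figure D4:**
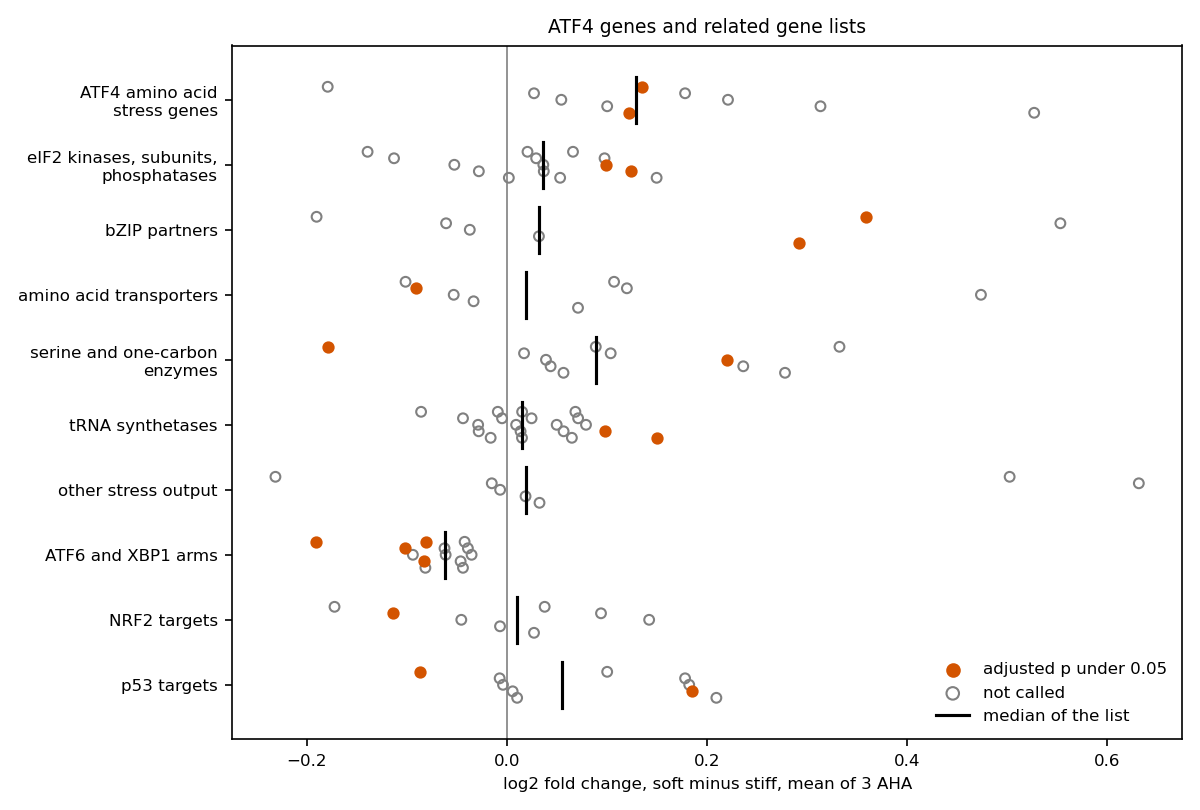
Soft minus stiff log2 fold change, averaged over the 3 AHA concentrations (horizontal axis), of every tested gene in the 10 ATF4 amino acid stress genes and 9 related lists, with called genes filled and the list's median as a black line. The ATF4 genes have the highest median, at 0.13, and all 13 genes of the ATF6 and XBP1 arms lie below 0 under this TMM scaling (6 of 13 with ERCC scaling). The 10 genes and the lists were chosen with earlier results of these data known.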

How the data were processed

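RNA-seq was done on 18 libraries of E14 mESCs, 3 in each of 6 groups given by the labels. The authors trimmed reads with Trim Galore 0.4.4, aligned them with GSNAP to the mouse genome build mm10 (GRCm38) and counted them with HTSeq, per the processing notes. The deposited values were raw counts per gene with no normalisation. HTSeq summary lines, 61.5 to 64.0% of each column's sum, entered neither library sizes nor tests.

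Protein-coding genes (GENCODE M21 names for 45143 of 46078 identifiers) passing filterByExpr with a minimum count of 10 were fitted with edgeR 4.0.16 (R 4.3.3), using TMM scaling, a robust quasi-likelihood model with 1 coefficient per group and 17 libraries. The 1 library left out had an ERCC share above 1.5 times the median. There were 11 contrasts, with Benjamini-Hochberg adjustment over 13438 genes in each and calls at 0.05. Log2 CPM for correlations used a prior count of 2. Shared sequence was searched as 50-base stretches of each gene's longest transcript. The procedure was tested on simulated data. Alternatives were RLE size factors, ERCC scaling, no expression filter beyond 2 summed counts, all biotypes, all 18 libraries, a different soft, high AHA library left out, the share of reads not aligned as a covariate, only the groups compared, DESeq2 1.42.0 and each library left out in turn.

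The 10 members and all lists were chosen with earlier results of these data known. Named genes were the members, up to 4 called genes of each related list (or its most abundant gene), Ppp1r15a and the 5 genes most correlated with Atf4. Replicate numbers follow sample order. Promoter sequences came from RefSeq (GRCm38.p6), where all 10 members matched.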

Additional observations from a re-analysis of the deposited data

Results flagged for a closer look

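Trib3 stood at 20.5 CPM in soft, high AHA replicate 3, and its gap to the nearest other soft library, at 14.3 CPM, was 0.578 of the range of the 8 soft libraries, above Dixon's 95% critical value for 8 samples. Among 20 groups examined (10 genes on soft and on stiff gels) it was the 1 past that value, and chance gives about 1 in 20. The same library held the highest soft levels of Chac1 (5.32 CPM) and Asns (173 CPM), neither of them past the critical value. The soft, high AHA library left out of the fit had 18.6 CPM of Trib3, 1.92 CPM of Chac1 and 166 CPM of Asns.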

How the results depend on the processing

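No paired analysis was possible because the labels give no replicate numbers shared between groups. The 2 members called in the mean soft minus stiff comparison became 4 with ERCC scaling, with all 18 libraries or with soft, high AHA replicate 2 left out in place of replicate 1 (Asns, Ddit3, Psat1 and Sesn2 in each), and 5 with replicate 3 left out in its place (Ddit4 added). The count was 1 with the share of reads not aligned as a covariate (Psat1) and 1 with DESeq2 (Asns), and between 1 and 4 with each library left out in turn, 4 without soft, low AHA replicate 3. At high AHA the count of 0 became 1 (Asns) with all 18 libraries or with soft, high AHA replicate 2 left out in place of replicate 1, and ranged from 0 to 1 with each library left out, 1 without soft, high AHA replicate 2 (0.32, adjusted p = 0.0490). The other comparisons gave 0 members under every alternative run. Between 8 and 9 members were higher on soft gels in every fit of the mean comparison, and the fit on only the groups compared could not be made for it or for the interaction. Where 1 soft, high AHA library remained, it was assumed to vary like the other groups. The cause of these changes was not tested. Chac1 and Slc7a11, with 3 to 34 counts per library, had SEs of 0.31 and 0.23 compared with 0.04 for Asns.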

Other observations

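The soft, high AHA library left out for its ERCC share had 20.9 CPM of Ddit3, 150.1 CPM of Sesn2 and 40.2 CPM of Ddit4 when all 18 libraries were scaled together, each above the highest of the 17 other libraries as scaled without it (16.3, 144 and 38.1 CPM). Its Phgdh level of 5.05 CPM was below the lowest of the others (6.44 CPM), and its Atf4 level of 149.6 CPM lay within their range of 125 to 150.3 CPM.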
